A study of Rattus norvegicus with 18 samples.

Results

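The comparison described here was that of lesioned with control striata in rats that received L-DOPA and no Riluzole: 6 of the 18 striata of the series, 3 from each side. Every rat of the series was a juvenile male Wistar animal whose left medial forebrain bundle was injected with 6-hydroxydopamine (6-OHDA), a toxin taken up by catecholamine neurons, on postnatal day (PND) 21. The striatum on the injected side is called lesioned and the one on the other side control, so that the control striata came from brains with the lesion and, in this group, from rats given L-DOPA. L-DOPA, with the peripheral decarboxylase inhibitor benserazide, was given from PND 35 to PND 49 and a last time on PND 53, when the striata were taken. The other rats of the series carried the same lesion and received saline (UNT) or L-DOPA with Riluzole (L-DOPA + R), an inhibitor of glutamate release, with 3 rats and both striata of each rat in every group. Since the left side was lesioned in every rat, lesion and hemisphere cannot be told apart.

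The striatum receives dopamine from the midbrain. Its GABAergic projection neurons respond to it through D1 or D2 receptors, which act on adenylyl cyclase in opposite directions. Loss of the dopamine input makes these receptors respond more strongly, and repeated L-DOPA then evokes abnormal involuntary movements in the rat. Methylation of cytosine in CpG dinucleotides is high over most of the genome and low at CpG-rich gene starts, and neurons and glia carry it at different places.

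Methylation was measured by reduced representation bisulfite sequencing (RRBS), in which DNA is cut at CCGG sites and the unmethylated cytosines of short fragments are converted. A methylation level here is the percentage of reads with an unconverted cytosine. The L-DOPA libraries held 18471279 to 30764504 cytosine calls per striatum, with a median of 15 to 18 reads at cytosines with 10 reads or more. The unmethylated spike-in control read as methylated in 0.302% to 0.470% of calls, and the methylated one in 98.1% to 98.5%. In all 6 striata 395600 CpGs were measured, and 274960 of them lay in the 53057 windows of 1 kb that held 3 or more. The tissue could not be checked from its cell types, because only 3 of 36 marker genes (Drd2, Pvalb and Slc1a2) had a start that could be located in the data.

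The mean methylation of the measured CpGs differed between the sides in different directions in the 3 rats. It was 52.4%, 52.6% and 51.2% in the control striata of rats 1, 2 and 3, and 52.6%, 51.6% and 52.2% in their lesioned striata. The lesioned side was 0.114 and 1.01 points higher in rats 1 and 3 and fell by 0.933 points in rat 2, a mean difference of 0.0633 ± 0.972 points (SD, n = 3 rats; exact sign-flip permutation test, 2-sided p = 0.75, where 0.25 is the smallest p that 3 rats allow). Leaving out 1 rat moved this mean to values from -0.410 (without rat 3) to 0.562 points (without rat 2). As a share of all reads, in which deeply read CpGs weigh more, the control striata had 50.2%, 51.9% and 45.4% and the lesioned striata 51.5%, 49.8% and 51.5%, a mean difference of 1.74 ± 4.13 points (exact sign-flip permutation test, 2-sided p = 0.75), and rat 2 again went the other way. The rats parted most at intermediate methylation. In the 14884 windows with a mean of 20% to 80%, the mean side difference was 0.318 points in rat 1, -2.07 in rat 2 and 2.54 in rat 3, whereas in windows under 20% it stayed between -0.198 and 0.25 points.

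Single CpGs seldom passed the test. A logistic model with a correction for overdispersion called 4 of 395600 CpGs at q under 0.01 (0.00101%), and all 4 were lower on the lesioned side. At an unadjusted p under 0.05 there were 21374 CpGs (5.4%). With the rat as a replicate block, since both striata came from the same animal, 23 CpGs were called (0.00581%), 16 lower and 7 higher, and 3 of the 4 were among them. With the F statistic 0 were called, with 3020 CpGs at an unadjusted p under 0.05.

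At chr13:48884845 the control striata had 37.8%, 42.9% and 44.8% methylation and the lesioned ones 4.35%, 0% and 5.56% (10-read minimum per cytosine, 18 to 45 reads), a difference of -38.5 ± 4.76 points (SD, n = 3; q = 0.00249). The CpG lay 94.6 kb from the start of Elk4, a transcription factor that acts with serum response factor. At chr8:46205401, 332 kb from the start of the sterol enzyme gene Sc5d, the control striata had 33.3%, 45.5% and 37.9% and the lesioned striata 3.70%, 0% and 4.17% (q = 0.00836). There L-DOPA + R rats differed by -45.2 points (unadjusted p = 2.92e-08) and UNT rats by -3.45 points. At chr3:176639515, between the starts of Fndc11 (82.4 kb away) and Chrna4 (91.4 kb), a subunit gene of the nicotinic acetylcholine receptor, they had 26.7%, 31.8% and 28.8% against 2.50%, 0% and 7.41% (q = 0.00688), while UNT rats differed by 1.55 ± 3.10 points and L-DOPA + R rats by -1.82 ± 25.6 points. The 1 kb windows that hold the chr13 and chr3 CpGs differed by -0.813 points (5 CpGs) and -7.01 points (3 CpGs), and neither was called. In these 3 single CpGs of chr13, chr8 and chr3 the groups stood far apart, yet each held a cytosine 46 to 50 bases past another one on its strand, the place where a read of 50 bases ends, as did 12.1% of all CpGs. With such cytosines left out these 3 could not be tested in all 6 striata and 0 of 361644 CpGs were called (19669 at an unadjusted p under 0.05), and with a minimum of 20 reads per cytosine the chr3 CpG differed by 1.14 points in the other direction. In UNT rats the chr13 CpG had 93.8%, 100% and 100% in control and 86.7%, 94.4% and 95.2% in lesioned striata, far above every L-DOPA striatum. The read minimum was applied to each strand before the strands were summed, so that a striatum may hold reads of a single strand or of both. What part the read end or the mix of strands had in these differences was not tested. Among the other 7 CpGs with the smallest p and 10 points or more in each rat, which 1.05% of CpGs reach, 5 also held such a cytosine. The 2 without one were chr15:10958937 (96.6%, 100% and 96.4% in control and 73.5%, 83.7% and 81.6% in lesioned striata, q = 0.0189) and chr2:205925846, inside window 7 below. In UNT rats the chr15 CpG was also lower on the lesioned side, by a mean of -9.55 points (unadjusted p = 0.00139). L-DOPA + R rats differed there by -5.50 ± 15.7 points (unadjusted p = 0.464), and rat 2 of that group went the other way.

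The fourth called CpG, chr6:133776580, held no such cytosine and had 168 to 257 reads in every striatum, so deep that leaving out the cytosines with the highest coverage removed it and left window 20, which holds it (described below), untested. Its methylation was 92.1%, 95.8% and 92.2% in control and 85.1%, 80.9% and 79.7% in lesioned striata, a difference of -11.5 ± 4.04 points (SD, n = 3; q = 0.00688, and 0.0259 with the replicate block). Its q was 0.0189 once read-end cytosines were left out of all CpGs. UNT rats were lower there in 3 of 3 by -4.28 ± 0.904 points (unadjusted p = 0.000189) and L-DOPA + R rats in 3 of 3 by -4.20 ± 3.68 points (unadjusted p = 0.0349), and the test of the difference gave q = 0.782 and 0.742. It lay between Begain and Dio3, 818 kb and 851 kb from their starts, the interval of the imprinted Dlk1-Meg3 cluster, in which one parental copy makes long noncoding RNAs, small nucleolar RNAs and microRNAs. RefSeq lists 200 genes between these borders, 59 of them microRNA genes.

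The summed reads of 1 kb windows gave more calls. Of 53057 windows 24 were called at q under 0.01 (0.0452%), 17 lower (0.032%) and 7 higher (0.0132%) on the lesioned side. The replicate block called 44 windows (0.0829%), 28 lower (0.0528%) and 16 higher (0.0302%), and shared 21 with the fit without it. In bulk tissue a change of methylation within cells and a change in the mix of cells cannot be told apart. All 24 windows differed in the same direction in the 3 rats, as did 23.1% of all windows (1.72% with 5 points or more in each rat), and in none did the values of the sides overlap, as in 8.97% of all windows. Their differences ranged from 5.79 to 24.8 points in size, with a median of 14.8 against 1.46 over all windows. Mean methylation in the control striata was over 80% in 13 windows, 20% to 80% in 10 and under 20% in 1. Most windows were thin, since 21 of 24 held 5 CpGs or fewer. A 95% Wilson interval for 1 striatum spanned 3.59 to 28.3 points, at 37 to 560 reads, and covers counting error only.

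The calls rested on the test and on the rats. The overdispersion term of the logistic model was at least 1, so that where the rats varied no more than counting does, the p-value reflects the number of reads and not the spread between rats. On simulated reads the same test called unchanged windows in a larger share of its calls than the threshold allows. An F test and limma on log2 ratios called 0 windows each, with 727 and 2527 windows at an unadjusted p under 0.05 against 3473 in the chi-square test (6.55%), of which 3.04% of windows were lower and 3.51% higher. Without rat 1, 2 or 3 there were 17, 16 and 24 lower against 18, 40 and 9 higher calls, so that the excess of lower windows turned without rat 1 and without rat 2. Of the 24, 3 kept the call without each of the rats in turn: windows 1, 2 and 4 in the order of p. Without read-end cytosines 20 of the 24 kept 3 CpGs or more, and 18 of these were called. The other 2 were windows 11 and 19, and windows 4, 9, 14 and 15 were left with 2 CpGs or fewer. Windows 1, 2 and 4 are described first. Values of UNT and L-DOPA + R rats are sums over the CpGs measured in all striata of that treatment. The same window can therefore hold other CpGs than in L-DOPA rats.

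**Figure D1:**
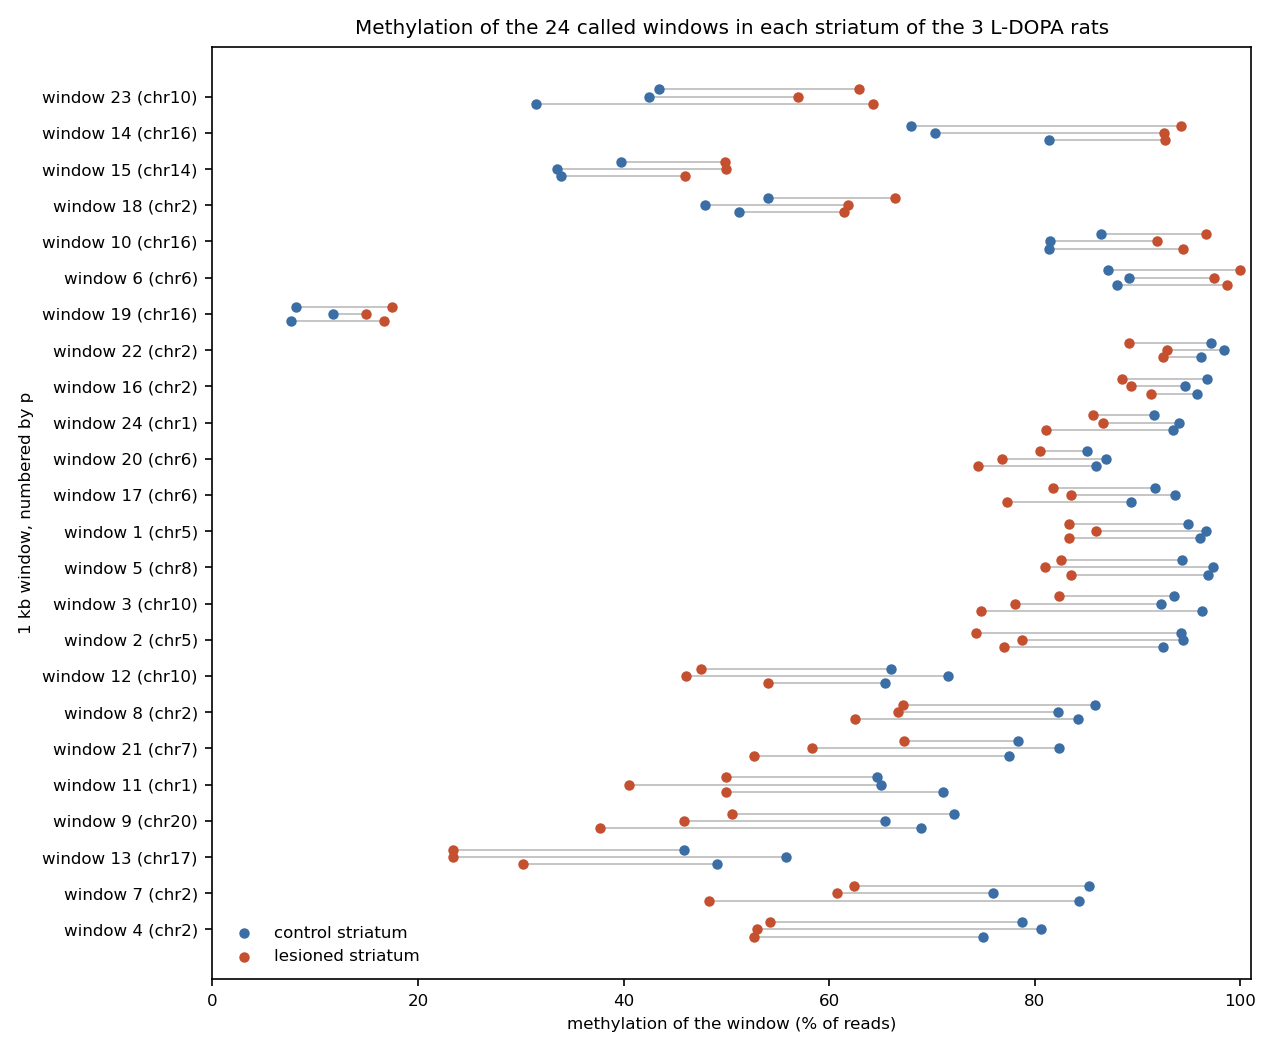
Methylation (x axis, percent of reads) of the 24 called windows (y axis, numbered by p and sorted by difference) in the control (blue) and lesioned (red) striatum of each L-DOPA rat, with a line joining both striata of a rat. In all 24 the 3 red points lie on one side of the 3 blue ones.

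Window 1, chr5:72208001-72209000, was 94.9%, 96.6% and 96.1% methylated in the control striata and 83.3%, 85.9% and 83.3% in the lesioned striata. The lesioned values lay together and at least 8.93 points below the control values. The difference was -11.7 ± 1.08 points (SD, n = 3; q = 2.11e-11, 207 to 334 reads), and all 4 CpGs, within 42 bp, were lower by 8.92 to 15.4 points. The nearest located starts were those of Rad23b, a DNA repair protein, 104 kb to the left, and Epb41l4b, 1984 kb to the right, and 22 RefSeq genes lie between them. In UNT rats the same window was lower in 3 of 3 lesioned striata by a mean of -6.54 ± 3.08 points (unadjusted p = 0.000289), and in L-DOPA + R rats in 3 of 3 by -7.80 ± 0.969 points (unadjusted p = 0.00131). The test of the difference between treatments gave q = 0.779 against UNT and 1.00 against L-DOPA + R.

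Window 2, chr5:74194001-74195000, lay 2.16 kb upstream of the start of Epb41l4b, which encodes a band 4.1 protein that ties membrane proteins to the cytoskeleton. Its control striata had 94.2%, 94.4% and 92.5% methylation and its lesioned striata 74.3%, 78.8% and 77.0%. The lesioned side fell by 17.0 ± 2.55 points (SD, n = 3; q = 4.18e-08, 107 to 186 reads), and all 4 CpGs were lower. Without the CpG at a read end the difference was -15.7 points. UNT rats were lower in 3 of 3 by -3.69 ± 2.67 points and L-DOPA + R rats in 3 of 3 by -6.50 ± 2.75 points (unadjusted p = 0.0128 and 0.00196), and the test of the difference gave q = 0.196 and 0.592.

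The start of Epb41l4b is shown to place that window, with the 5 CpGs measured in all 6 striata in capitals. The sequence is RefSeq's (GRCr8, 250 bases before to 50 after the start, 5′ to 3′ on the strand of the gene), and its CpG spacing put it at chr5:74191789-74192088 of rn6, on the minus strand.
Epb41l4b: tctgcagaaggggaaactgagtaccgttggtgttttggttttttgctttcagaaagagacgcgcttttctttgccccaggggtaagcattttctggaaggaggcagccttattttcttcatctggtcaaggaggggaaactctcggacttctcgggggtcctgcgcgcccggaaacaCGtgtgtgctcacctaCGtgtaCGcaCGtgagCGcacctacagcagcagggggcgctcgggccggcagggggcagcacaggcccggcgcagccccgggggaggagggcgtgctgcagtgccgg
At these 5 CpGs together the control striata had 0%, 1.52% and 1.14% methylation and the lesioned striata 0% each (54 to 225 reads, q = 0.776 among promoters, where 0 of 54 reads allows up to 5.56%). The CpGs at the start were thus near 0 on both sides, whereas the summed reads of the window 2.16 kb upstream were over 74% methylated in each striatum.

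Window 4, chr2:45970001-45971000, held 3 CpGs and was 78.8%, 80.6% and 75.0% methylated in control and 54.3%, 52.9% and 52.6% in lesioned striata. The difference of -24.8 ± 2.66 points (SD, n = 3; q = 1.46e-05, 67 to 129 reads) was the largest of the 24. L-DOPA + R rats were lower in 3 of 3 by -22.1 ± 8.62 points (unadjusted p = 0.00132). UNT rats had 74.5%, 79.2% and 71.0% in control and 83.8%, 72.7% and 74.2% in lesioned striata, so that the sides overlapped (2.03 ± 8.01 points, unadjusted p = 0.423). The test of the difference between L-DOPA and UNT gave an unadjusted p of 6.58e-06 and q = 0.0468 (0.0387 with the block), above the threshold. The window lay between Mcidas and Mocs2, 1107 kb and 1011 kb from their starts. Window 18, chr2:45501001-45502000, lay in the same interval and was higher, with 54.1%, 47.9% and 51.2% in control and 66.3%, 61.8% and 61.4% in lesioned striata (q = 0.00295).

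**Figure D2:**
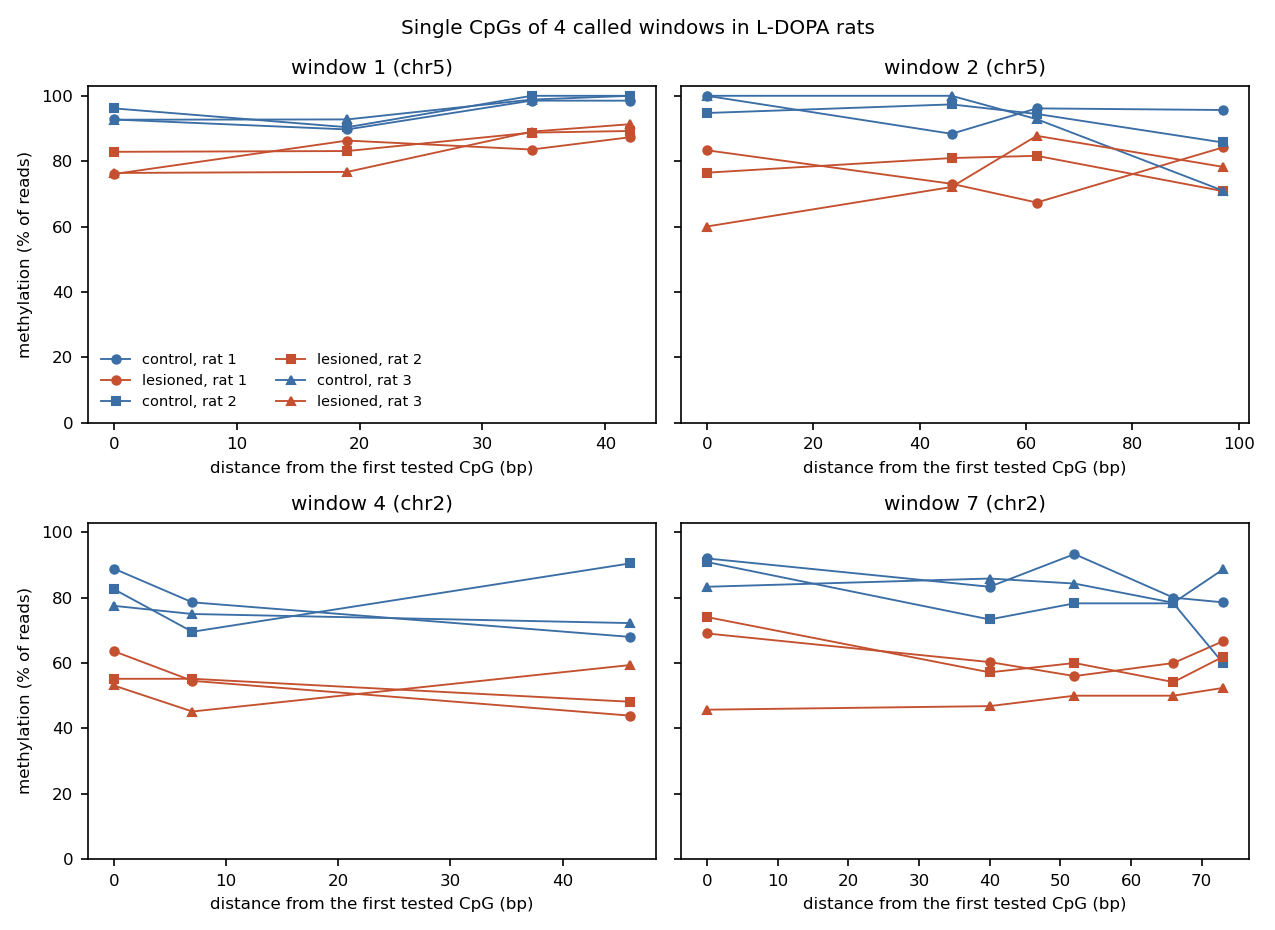
Methylation (y axis, percent of reads) of each tested CpG against its distance from the first tested CpG of the window (x axis, bp) in windows 1, 2, 4 and 7, with 1 line per striatum (control blue, lesioned red, 1 marker shape per rat). In window 1 the blue and red points do not overlap at any of the 4 CpGs.

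Window 7, chr2:205925001-205926000, fell from 85.3%, 75.9% and 84.3% in the control striata to 62.4%, 60.8% and 48.3% in the lesioned ones, by 24.7 ± 10.5 points (SD, n = 3; q = 0.00114, 133 to 318 reads). Rat 3 moved most. All 5 CpGs were lower, by 15.4 points or more, and none lay at a read end. The window was called in L-DOPA + R rats as well, the 1 window called in both groups, at -13.9 ± 2.09 points (q = 0.000339), and was lower in 3 of 3 UNT rats (-7.31 ± 5.11 points, unadjusted p = 0.0122). It lay 349 kb from the start of Hipk1, a nuclear kinase, and 765 kb from Tspan2, a tetraspanin of oligodendrocytes.

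Window 3, chr10:102044001-102045000, had 93.6%, 92.3% and 96.2% methylation in control and 82.4%, 78.0% and 74.8% in lesioned striata (-15.6 ± 5.26 points, q = 7.74e-06). It lay 156 kb from the start of Vcf1. Both other treatments were lower in 3 of 3 rats there, by -5.13 ± 4.48 points in UNT and -8.51 ± 7.54 points in L-DOPA + R. Window 5, chr8:91630001-91631000, had 94.4%, 97.4% and 96.9% against 82.5%, 81.0% and 83.5% (-13.9 ± 2.32 points, q = 3.21e-05). The differences of its 4 CpGs ranged from 0 to -24.4 points. UNT rats were lower in 3 of 3 by -7.10 ± 5.23 points (unadjusted p = 0.0018).

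Other windows with lower methylation on the lesioned side lay far from located starts. Window 8, chr2:260525001-260526000, had 85.9%, 82.3% and 84.2% in control and 67.1%, 66.7% and 62.5% in lesioned striata (q = 0.00148), 359 kb from Cryz. Window 9, chr20:20100001-20101000, had 72.1%, 65.4% and 68.9% against 50.5%, 45.9% and 37.7% (q = 0.00148), 275 kb from Ccdc6. Window 13, chr17:8713001-8714000, had the lowest level of the lower windows, at 45.8%, 55.8% and 49.1% in control and 23.4%, 23.4% and 30.2% in lesioned striata (q = 0.00277). Windows 11 and 12, chr1:202052001-202053000 and chr10:87279001-87280000, differed by -20.1 ± 4.99 and -18.4 ± 7.08 points (q = 0.00207 and 0.00225). Window 11 held 1 CpG at a read end, and without it the difference was -17.4 points (unadjusted p = 0.000637) and the window was not called (q = 0.179). Window 17, chr6:38264001-38265000, differed by -10.7 ± 1.15 points (q = 0.00277). Among windows outside the first 20, named here because they complete the called set, window 21, chr7:27853001-27854000, differed by -20.0 ± 7.72 points and window 24, chr1:142693001-142694000, by -8.57 ± 3.35 points over 10 CpGs, all of them lower (q = 0.00375 and 0.00474).

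Window 22, chr2:251455001-251456000, lay 1.36 kb into Znhit6, which encodes an assembly factor of box C/D small nucleolar ribonucleoproteins. All 7 CpGs were lower, and the window went from 97.2%, 98.4% and 96.2% in control to 89.1%, 92.8% and 92.5% in lesioned striata (-5.79 ± 2.19 points, q = 0.00375, 153 to 353 reads). This was the smallest difference of the 24. Its start is shown for the contrast with the window, with the 5 measured CpGs in capitals (RefSeq, GRCr8, placed at chr2:251453394-251453693 of rn6, plus strand).
Znhit6: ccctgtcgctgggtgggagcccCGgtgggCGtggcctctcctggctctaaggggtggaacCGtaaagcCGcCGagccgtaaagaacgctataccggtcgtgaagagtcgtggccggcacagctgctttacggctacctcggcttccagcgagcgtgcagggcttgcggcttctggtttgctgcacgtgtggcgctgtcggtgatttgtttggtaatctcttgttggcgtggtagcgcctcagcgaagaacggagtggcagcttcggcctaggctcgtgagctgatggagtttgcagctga
There the control striata had 1.16%, 2.27% and 0.448% methylation and the lesioned striata 0%, 1.59% and 0% (63 to 223 reads, q = 0.966).

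The 7 windows that were higher on the lesioned side included 3 near or within genes. Window 15, chr14:5037001-5038000, lay 0.896 kb from the start of Zfp326, a zinc finger protein of the complex that joins transcription elongation to splicing. It had 39.7%, 33.5% and 33.9% methylation in control and 49.8%, 50% and 46% in lesioned striata (12.9 ± 3.29 points, q = 0.00277, 230 to 365 reads). L-DOPA + R rats were higher in 3 of 3 by 10.6 ± 2.87 points (unadjusted p = 0.112), and UNT rats differed by -0.804 ± 2.54 points. Window 10, chr16:47241001-47242000, was 817 kb from the start of Tenm3, a cell adhesion protein of neurons whose RefSeq length in GRCr8 would span it. It rose from 86.4%, 81.4% and 81.4% to 96.7%, 91.9% and 94.4% (11.3 ± 1.56 points, q = 0.0018). Window 23, chr10:109447001-109448000, lay 26.9 kb from the start of Bahcc1, a chromatin protein whose length would also span it, and went from 43.4%, 42.4% and 31.5% to 62.9%, 57.0% and 64.3% (22.3 ± 9.45 points, q = 0.00375). The replicate block ended the last call (q = 0.0284).

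Of the remaining higher windows, window 6, chr6:891001-892000, rose from 87.1%, 89.2% and 88.0% to 100%, 97.5% and 98.6% (q = 0.000657). In UNT and L-DOPA + R rats its side difference was near 0, at 0.00876 ± 2.56 and -0.365 ± 2.07 points, and the test of the difference gave q = 0.0631 and 0.669. Window 14, chr16:67141001-67142000, rose by 19.9 ± 7.79 points (q = 0.00277) on the fewest reads of the set, 37 to 68. Window 19, chr16:79699001-79700000, was the only called window under 20%. It rose from 8.16%, 11.7% and 7.68% to 17.5%, 14.9% and 16.7% (q = 0.00331), but 9 of its 12 CpGs held a cytosine at a read end, and the other cytosines gave 5.67 points and an unadjusted p of 0.0327. The block also ended this call (q = 0.0482).

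Window 20, chr6:133776001-133777000, was the only called window that held a called CpG, the one between Begain and Dio3. Its control striata had 85.0%, 86.9% and 85.9% methylation and its lesioned striata 80.5%, 76.8% and 74.5% (-8.70 ± 3.68 points, q = 0.00331 and 0.0125 with the block). Of its 3 CpGs 2 were lower and 1, on the fewest reads, was higher by 5.60 points. With its own, 17 CpGs were tested from chr6:133776052 to chr6:133791756, a stretch chosen after its values were seen. Of these, 6 were lower at an unadjusted p under 0.05 and none higher, where 5.4% of all CpGs had such a p in either direction, a count that depends on where the stretch was ended. The next such CpGs past its end went the other way. At chr6:133795672 the control striata had 65.2%, 70.1% and 57.7% and the lesioned striata 79.2%, 83.9% and 67.7% (12.6 ± 2.25 points, unadjusted p = 0.0281 and 0.000411 with the block), and chr6:133795702 was higher by 6.69 ± 6.64 points (unadjusted p = 0.0122). Their window, chr6:133795001-133796000, was higher in 3 of 3 rats, by 5.06 ± 3.83 points (unadjusted p = 0.00805, q = 0.456). Within the stretch, 5 of the 6 lower CpGs had 143 to 462 reads, against a median of 25 over all CpGs. The CpG chr6:133791734 had 94.7%, 92.3% and 95.2% in control and 86.1%, 85.5% and 82.0% in lesioned striata (-9.54 ± 3.33 points, q = 0.0125, and 0.0066 with the block). In UNT rats it was lower by -4.99 ± 3.19 points and in L-DOPA + R rats by -9.76 ± 3.07 points (unadjusted p = 0.000409 and 0.000171). Its neighbour chr6:133791756 differed by -3.27 points (unadjusted p = 0.268). The CpGs chr6:133780134 and chr6:133780155, between these, differed by -3.41 ± 1.62 and -6.00 ± 3.12 points in L-DOPA rats (unadjusted p = 0.00609 and 0.00296, q = 0.730 and 0.660). Over the whole interval 11 of 307 CpGs were lower and 15 higher at an unadjusted p under 0.05 (5.4% of all CpGs in both directions together), and the median difference of its 45 windows was 0.00874 points.

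**Figure D3:**
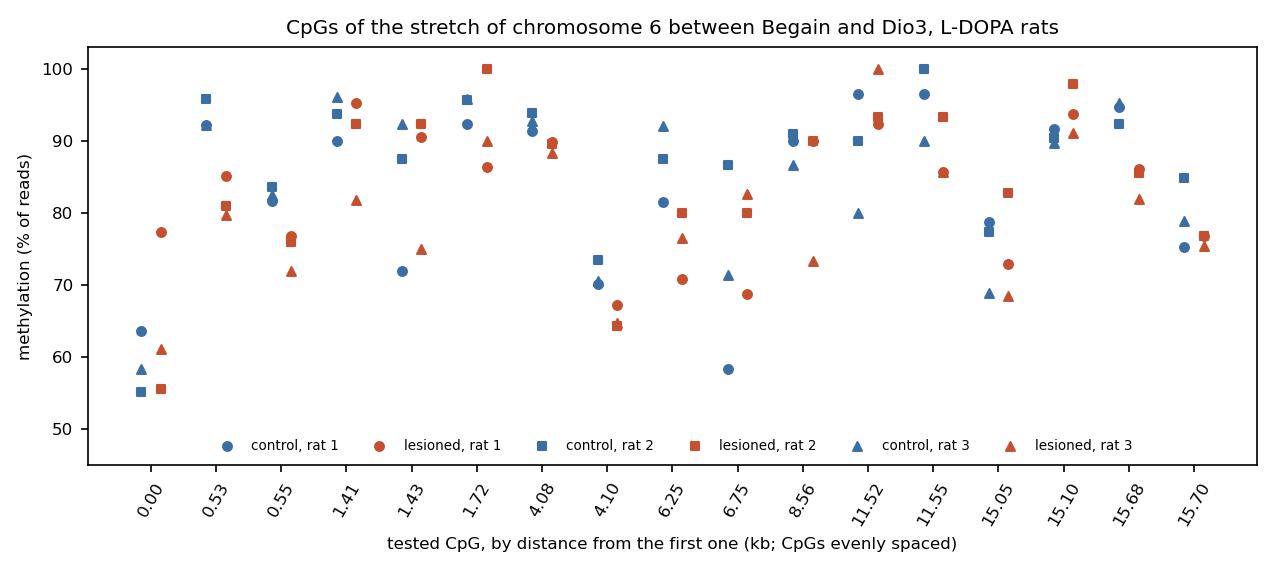
Methylation (y axis, percent of reads, from 45%) of the 17 tested CpGs of the chromosome 6 stretch in order of position (x axis, distance from the first in kb, CpGs drawn at even spacing), with control striata in blue and lesioned striata in red and 1 marker shape per rat. In the called CpG, second from the left, and in chr6:133791734, second from the right, the 3 red points lie below the 3 blue ones.

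The other treatments share no striata with the L-DOPA rats, and served to see whether the windows called there moved between the sides of other lesioned brains. Of the 24 windows 21 were measured in UNT rats, and 15 of these differed in the same direction (49.9% over all windows). At an unadjusted p under 0.05, 6 were lower in both and none went the other way, where 3.97% of all windows had the same direction at that p in UNT rats. The 6 were windows 1, 2, 5, 7, 11 and 24, and all were lower on the lesioned side. In L-DOPA + R rats 18 were measured, 13 had the same direction (50.2% over all windows), 6 of them at an unadjusted p under 0.05 (3.81% over all windows), and 1 was opposite. The lower windows had a median difference of -17.0 points in L-DOPA rats and -3.61 points in UNT rats (15 windows), and the higher ones 12.5 and 0.446 points (6 windows). The L-DOPA values chose these windows, so that their size there is a description. Of the 18 windows measured in all treatments, each of one direction in the L-DOPA rats that chose them, windows 1, 2, 3 and 7 were also lower in every UNT and L-DOPA + R rat. The share of all windows with one direction in the 9 rats was not counted.

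Few side differences passed the test of a difference between treatments (the interaction of side and treatment). Against UNT 0 of 49760 windows were called, with 3082 at an unadjusted p under 0.05 (6.19%), while the replicate block called 16 (0.0322%). Against L-DOPA + R 5 of 40315 windows were called (0.0124%) and 12 with the block (0.0298%), and 2 of 303723 single CpGs (0.000658%). One of the 5 was window 16, chr2:236761001-236762000, which was lower in L-DOPA rats, from 96.8%, 94.6% and 95.7% to 88.5%, 89.3% and 91.3% (-6.02 ± 1.98 points, q = 0.00277). In L-DOPA + R rats it went from 92.3%, 88.1% and 89.6% to 94.2%, 97.0% and 93.8% (5 ± 3.57 points, unadjusted p = 0.00168), and the interaction had q = 3.24e-05. UNT rats differed by 0.805 ± 1.63 points. The sides themselves differed in 29 of 85028 windows in UNT rats and in 38 of 49919 in L-DOPA + R rats, and these shared 0 and 1 called windows with the L-DOPA rats.

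**Figure D4:**
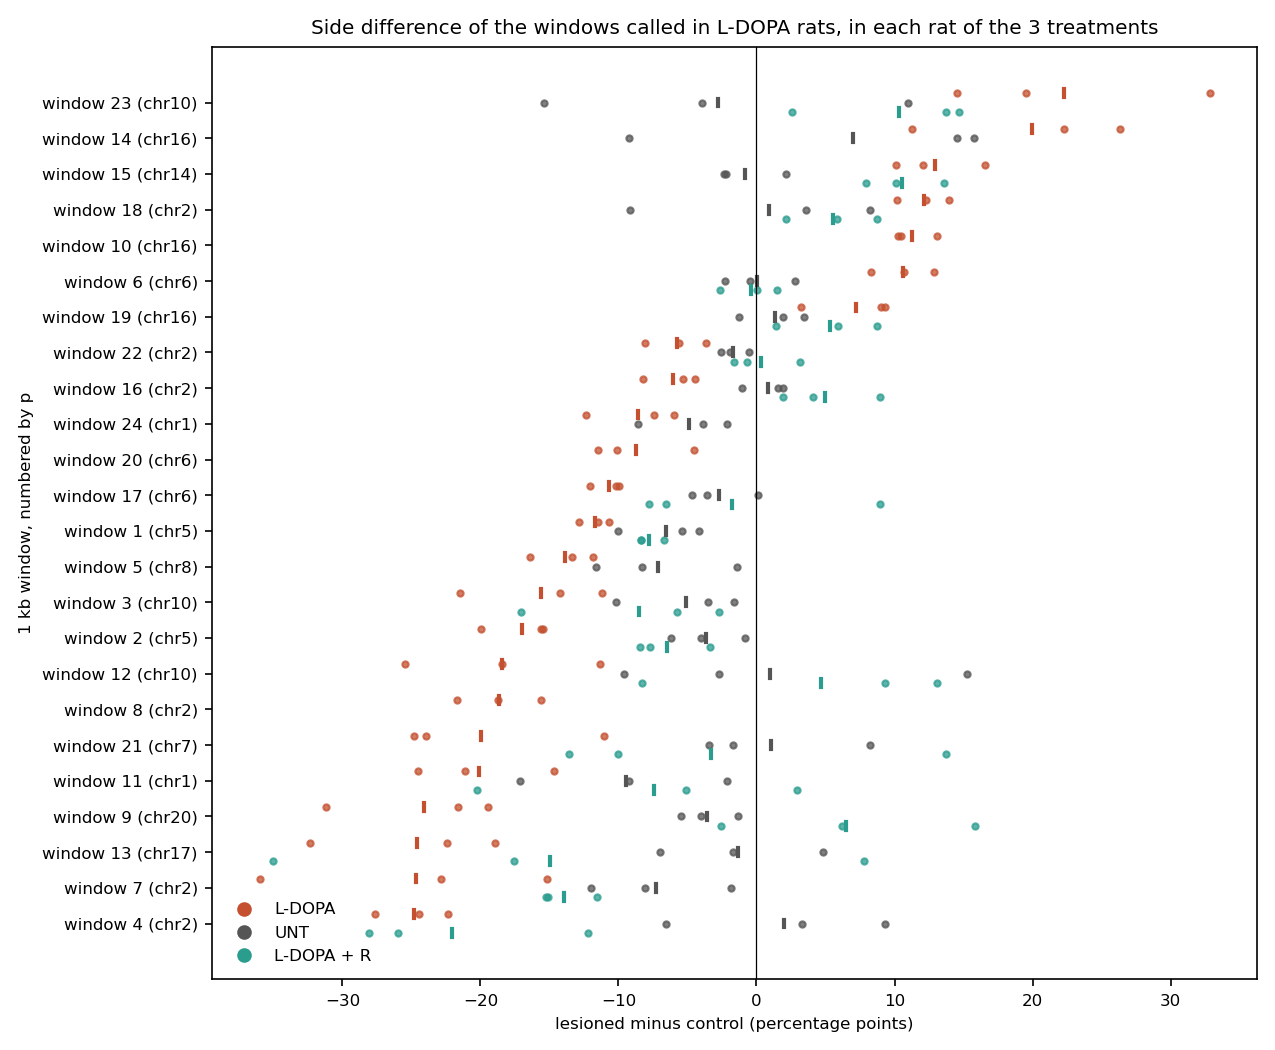
Side difference (x axis, lesioned minus control in percentage points) of the windows called in L-DOPA rats (y axis, numbered by p) in each rat (points) of the 3 treatments, with the mean as a bar. Windows 1, 2, 3 and 7 lie left of 0 in all 9 rats, and windows without grey or turquoise points were not measured in that treatment.

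Gene starts were low on both sides. At the 3054 promoters that could be placed on rn6 and held 3 measured CpGs or more, the median methylation of the control striata was 1.01%, and 2989 were under 20%. None was called (0%), with or without the block, and 195 had an unadjusted p under 0.05 (6.39%). The smallest q, 0.0752, was shared by Tmem138, Atp6v1c2 and Sf3a2. Atp6v1c2, a subunit gene of the vacuolar proton pump, had 0.895%, 0.61% and 0.965% in control and 2.46%, 3.11% and 3.46% in lesioned striata, so that the sides did not overlap but differed by 2.18 ± 0.537 points only. Tmem138, a gene of the primary cilium, had 0% in all control striata and 1.65%, 2.94% and 1.66% in the lesioned ones. Of the 3815 windows that held a placed start 0 were called, where 0.0452% of all windows were, and 5.90% had an unadjusted p under 0.05 (6.55% of all windows), so that neither share stood apart from the background.

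The lists of genes of dopamine, opioid, glutamate, serotonin and GABA signalling, of immediate early and ERK genes, of DNA methylation genes and of imprinted genes gave no call. They had 130 tested windows within genes with a placed start, of which 2 were lower and 2 higher at an unadjusted p under 0.05 (3.08%, against 6.55% over all windows). Of the 169 genes of all lists 40 could be placed and 23 had a tested promoter, so that the starts of most members were not located and their windows are not counted here. The windows numbered 32 for the immediate early and ERK list, 22 for GABA, 19 for DNA methylation, 18 for dopamine, 16 for glutamate receptors, 13 for imprinted genes and 5 each for serotonin and opioids.

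The dopamine list had 18 windows of 5 placed genes (Adcy5, Drd2, Drd5, Prkar2b and Slc6a3), none called, 2 lower at an unadjusted p under 0.05 (3.04% of all windows) and a median difference of -1.77 points, against 0.0328 over all windows. So few windows cannot tell the list from the rest. The largest of them lay in Adcy5, the main adenylyl cyclase of the striatum, on which D1 and D2 receptors act. The window chr11:68785001-68786000, 56.8 kb from the gene start, had 69.4%, 85.9% and 79.5% methylation in control and 59.7%, 60.4% and 53.0% in lesioned striata, a difference of -20.6 ± 9.39 points over 3 CpGs that did not pass (adjusted p = 0.117, logistic model across all windows with Benjamini-Hochberg adjustment). The sides did not overlap. UNT rats differed by -7.14 ± 15.8 points and L-DOPA + R rats by -8.70 ± 14.9 points (unadjusted p = 0.608 and 0.509). A window of Prkar2b, a regulatory subunit of protein kinase A, had 61.5%, 43.4% and 51.7% against 41.7%, 37.1% and 43.4% (q = 0.685), and the control value of rat 2 met the lesioned value of rat 3. The Adcy5 start is shown as the counterpart of its window, with the 4 measured CpGs in capitals (RefSeq, GRCr8, placed at chr11:68842271-68842570 of rn6, minus strand).
Adcy5: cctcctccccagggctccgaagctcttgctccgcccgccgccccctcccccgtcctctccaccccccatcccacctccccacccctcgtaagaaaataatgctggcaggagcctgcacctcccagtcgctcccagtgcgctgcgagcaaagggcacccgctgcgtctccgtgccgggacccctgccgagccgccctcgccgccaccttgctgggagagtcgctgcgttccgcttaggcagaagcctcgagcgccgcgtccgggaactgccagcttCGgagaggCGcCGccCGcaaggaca
No methylated read was seen there in any striatum, at 71 to 185 reads, which allows up to 4.23% in the shallowest.

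The window around the placed start of Drd2, the D2 receptor of striatopallidal neurons, was chr8:53678001-53679000. It had 32.8%, 39.0% and 40.7% methylation in control and 25.8%, 22.0% and 35.3% in lesioned striata. No CpG of the Drd2 promoter sequence itself was tested, so that these levels are not those of the start. Each rat was lower on the lesioned side, but the sides overlapped and the window did not pass (-9.84 ± 6.28 points, unadjusted p = 0.0585, q = 0.782). In UNT rats it had 10.9%, 9.17% and 15.9% in control and 22.7%, 18.8% and 15.7% in lesioned striata, a difference in the other direction in 2 of 3 rats (7.05 ± 6.42 points, unadjusted p = 0.0218). The CpGs summed in UNT rats may not be the same ones, so that these levels cannot be compared between treatments. L-DOPA + R rats were higher in 3 of 3 by 3.91 ± 5.06 points (unadjusted p = 0.437). The interaction with UNT had an unadjusted p of 0.0036 and q = 0.408. In the list of immediate early genes, whose products rise after a dose of L-DOPA in the lesioned striatum, and of ERK pathway genes, 8 tested promoters had a median methylation of 1.46%. None had an unadjusted p under 0.05 (6.39% of all promoters), and 8 promoters are too few for that count to tell them from the rest. A window 5.92 kb from the start of Fosb, a subunit gene of AP-1, had 5.74%, 11.9% and 14% in control and 21.7%, 11.5% and 18.9% in lesioned striata (q = 0.752), with rat 2 unmoved. In Gabbr2, a GABA-B receptor subunit, a window 267 kb from the start was higher in each rat, at 88.0%, 87.2% and 85.6% against 94.1%, 93.3% and 90.1% (unadjusted p = 0.0208, q = 0.611), as in 3 of 3 UNT rats (4.89 ± 0.922 points, unadjusted p = 0.0207). L-DOPA + R rats were higher there in 2 of 3, by a mean of 2.32 ± 7.22 points (unadjusted p = 0.832). The 1 window of Pvalb, the calcium-binding protein of fast-spiking interneurons, had 75.5%, 83.6% and 78.3% against 85.3%, 84.7% and 86.7% (6.45 ± 4.65 points, unadjusted p = 0.0461, q = 0.751). In UNT rats it went the other way in 3 of 3, by -7.80 ± 2.18 points (unadjusted p = 0.0394), and the interaction had an unadjusted p of 0.000967 and q = 0.256.

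**Figure D5:**
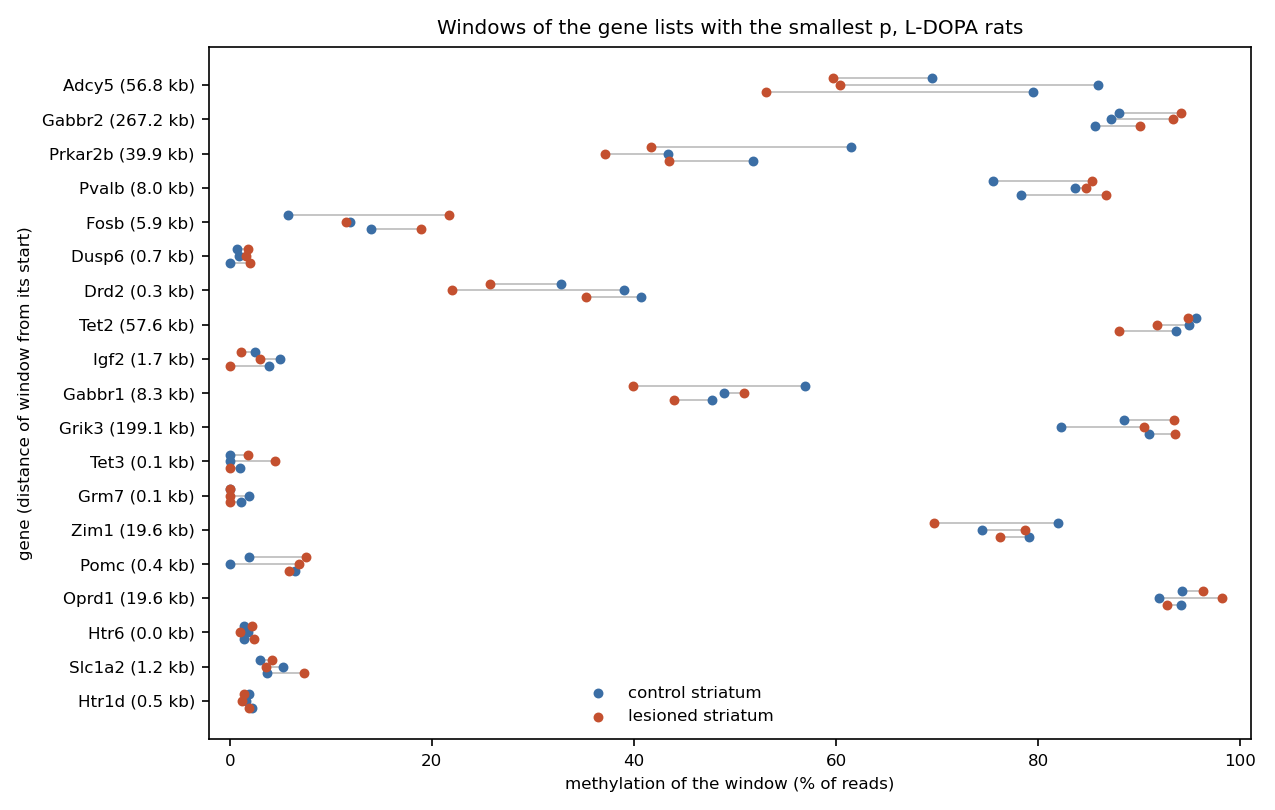
Methylation (x axis, percent of reads) of up to 2 windows per gene list with the smallest p (y axis, gene and distance of the window from its start, sorted by p) in the control (blue) and lesioned (red) striatum of each L-DOPA rat. Windows within 1 kb of a start lie at 7.53% or below on both sides except at Drd2. At Drd2 no CpG of the promoter sequence itself was tested.

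Synaptic and imprinted genes that carry a CpG listed by the study for a contrast between treatments, with both sides pooled, were looked up as well. The contrast was L-DOPA against UNT where that list held the gene, which uses all 6 L-DOPA striata, and otherwise one with L-DOPA + R. Between the sides 14 of these genes could be tested, of which Commd1 and Zrsr1 share their CpG. None was called and the smallest q was 0.958. None had an unadjusted p under 0.05 (5.4% of all CpGs), and these CpGs are too few for that count to tell them from the rest. That was the CpG of Grm8, a presynaptic glutamate receptor (chr4:55304947), at 73.4%, 76.3% and 73.3% in control and 86.0%, 79.1% and 80.4% in lesioned striata. The CpG of Pde10a, the phosphodiesterase of projection neurons (chr1:52511275), had 34.0%, 42.9% and 32.8% against 35.5%, 27.0% and 25.5% (q = 0.976).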

How the data were processed

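Both striata of 3 rats per treatment were profiled by RRBS. Per the labels and the study's methods, DNA was cut with MspI, bisulfite-converted and read as 50-base single ends, and the authors trimmed reads with Trim Galore (0.4.0), aligned them to rn6 with Bismark and deposited, per cytosine, the read count (coverage) and the percent of its reads with a C or a T. Methylated reads were computed as the coverage times the percent with a C, rounded to whole reads. Cytosines with 10 reads or more were kept, both strands of a CpG were summed, and CpGs measured in all 6 L-DOPA striata were tested, singly and as sums over 1 kb windows with 3 CpGs or more. The test was a logistic model with an overdispersion term of at least 1 and a chi-square test, as in the methods of the study, with Benjamini-Hochberg adjustment and a q threshold of 0.01, run in Python 3.11.15 (numpy 2.4.6, scipy 1.17.1). On simulated reads with known changes, unchanged windows made up a larger share of its calls than the threshold allows, while an F test and limma (3.58.1, log2 ratio of methylated to unmethylated reads plus 1) called few or none. The side difference was compared between treatments by an interaction term, on the CpGs measured in all striata of both treatments. The levels and side differences given for UNT and L-DOPA + R rats rest on the CpGs measured in all striata of that treatment. They can thus sum other CpGs of a window. Windows named were those called, of which the design listed the first 20.

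Same-numbered striata came from the same rat by the study's design, so a fit with the rat as a replicate block was also run. The deviations of lesioned and control striata of one rat correlated at 0.0320 to 0.0546 across CpGs, against -0.0476 to -0.00189 between rats, and at 431 CpGs where the control striata of the rats spanned 60 points or more the sides of a rat differed by 13.6 to 19.5 points against 29.7 to 51.3 between rats.

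Apart from the gene names that the site lists of the study give for single CpGs, no rn6 annotation was used. RefSeq promoter sequences (GRCr8, 250 bases before to 50 after a start) were placed on rn6 by the spacing of their CpGs among the measured ones, a step chosen after seeing the data: of 33148 promoters 15900 could be searched and 6058 were kept. Distances to genes therefore refer to placed starts, and a nearer gene may lie between. The windows, lists and comparison were chosen with earlier results of these data known. Depth per striatum, spike-in controls and Wilson intervals, which cover counting error only, are given with the results. The p-values reflect the spread between 3 rats only where it exceeds that of counting, since the overdispersion term was at least 1, and the number of reads elsewhere.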

Additional observations from a re-analysis of the deposited data

Results flagged for a closer look

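The side difference of 5 windows and 2 CpGs in L-DOPA rats differed from that in rats given Riluzole as well, by the test of the interaction (Benjamini-Hochberg adjusted over all windows or CpGs). The window chr2:45931001 had q = 1.68e-06, with -8.38 ± 6.08 points in L-DOPA and 26.5 ± 9.03 points in L-DOPA + R rats (SD, n = 3 rats each). Its L-DOPA striata had 88.4%, 83.7% and 89.1% in control and 74.7%, 81.9% and 79.3% in lesioned, and its L-DOPA + R striata 60%, 60.6% and 76.7% against 94.4%, 88.9% and 93.3%. The control values of the treatments lay apart as well, but each treatment summed the CpGs measured in its own striata, so that these levels cannot be compared. UNT rats differed by -2.74 ± 5.30 points. The window chr2:236761001, described above, had q = 3.241e-05. The window chr2:121599001 had q = 0.0001341, with 5.43 ± 1.87 points in L-DOPA and -14.6 ± 1.12 points in L-DOPA + R rats. The window chr10:106156001 had q = 0.002469, with 7.20 ± 2.14 against -5.75 ± 3.66 points. The window chr3:120051001 had q = 0.005016 (0.0206 with the replicate block), with 11.9 ± 6.80 against -6.75 ± 3.59 points. The CpG chr2:221536698, at a read end, had q = 0.008694, with -22.9 ± 11.6 against 22.5 ± 15.2 points. In UNT rats it had 87.5%, 100% and 95.5% in control and 81.25%, 90.9% and 100% in lesioned striata, far above every striatum of the other treatments. The CpG chr18:24760589 had q = 0.008694 as well, with 18 ± 1.46 against -24 ± 4.31 points on 16 to 24 reads in L-DOPA striata. None of the 5 windows kept its call without each of the rats in turn.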

How the results depend on the processing

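Leaving out cytosines 50 bases past another gave 0 CpGs, as did leaving out those 46 to 50 bases past, the F test and the test of each strand, while a limit on the highest coverage, which removed chr6:133776580 and window 20 and moved chr8:46205401 to q = 0.0111, gave 2, the replicate block 23 and the fit without the overdispersion term 51, against 4 in the main setting. Without replicate 1, 2 or 3, with the CpGs measured in all 6 striata kept, 4 to 17 CpGs and 33 to 56 windows were called. Against 24 windows, a minimum of 20 reads gave 8, the replicate block 44, no overdispersion term 222, at least 1 CpG per window 38, at least 5 CpGs per window 9, and the F test, limma and limma with the replicate block 0 each. The mean side difference was 1.74 points as a share of all reads. The side difference differed from that of UNT rats in 16 windows with the replicate block and in 6 to 17 without one rat, and from that of L-DOPA + R rats in 12 with the block, 0 by the F test, 3 without cytosines 46 to 50 bases past another and 14 to 28 without one rat. The mean side difference was -0.410 to 0.562 points without one rat. The CpG chr3:176639515 turned to 1.14 points with a minimum of 20 reads. The cause of these shifts was not tested. Since each of the 24 windows differed in one direction in all 3 rats, leaving out a rat could not turn any of them. Depth was a median of 25 reads per CpG, and with a minimum of 20 reads per cytosine 9 of the 24 windows could be tested.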
